A study of Mus musculus with 2 samples.

Results

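The circadian repressors and clock output genes measured here were Per1, Per2, Per3, Cry1, Cry2, Ciart, Nr1d1, Nr1d2, Dbp and Tef, taken by name from the gene symbols of the deposited read counts. All 10 were found among the 32531 symbols, and all 10 had at least 50 reads over both libraries, the minimum set for a gene to be measured. RNA came from the dorsal striatum of mice given long daily access to intravenous cocaine. One library came from the escalating group and 1 from the nonescalating group, so both had taken cocaine, and no drug-free library was analysed here. The mice of both groups were Drd1-TRAP transgenics (line CP73), in which a Drd1 promoter puts an EGFP-tagged ribosomal protein, Rpl10a, into Drd1-expressing cells, on a background of FVB/N and Swiss Webster crossed for at least 9 generations to C57BL/6. The libraries were the input, total RNA of all cells in the dissected tissue and not RNA purified on the tagged ribosomes. How many animals made up each library, how old they were and at what hour tissue was taken is not given in the sources used here.

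In the mammalian clock, the proteins CLOCK (or its relative NPAS2) and BMAL1 bind E-box sequences and switch on the Per and Cry genes, whose products return to the nucleus and repress CLOCK and BMAL1. CIART (also called CHRONO) represses the same pair, and the nuclear receptors encoded by Nr1d1 and Nr1d2 (REV-ERB alpha and beta) repress Arntl, the gene of BMAL1. DBP and TEF are transcription factors that carry the rhythm to output genes by binding D-box sequences. The loop runs in most cells, striatal neurons and glia included. Transcripts of Dbp, Nr1d1 and the Per genes are at their highest when the Arntl transcript is low, and the Cry1 transcript peaks later than those of the Per genes in many mouse tissues.

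Of these 10 genes, 6 were higher in the escalating library and 0 were lower. Ciart, Dbp and Per3 had the largest differences, between 2.08-fold and 2.70-fold, and Cry2, Per2 and Nr1d2 lay between 1.55-fold and 1.82-fold. Per1, Tef and Nr1d1 differed by less than 1.5-fold in the same direction, and Cry1 was at nearly the same level in both libraries. A gene was called when its ratio of CPM (reads per 1000000 reads of the TMM-scaled library size) was at least 1.5-fold and the 95% counting interval of the ratio excluded 1. Of the 12213 measured genes, 9.36% were called higher and 17.1% lower, against 6 and 0 of these 10. Their median log2 ratio was 0.64, beside 0.02 over all measured genes. No replicate stands behind any of these values, so no test between the groups was possible, and each difference is between 2 libraries. The intervals cover counting error alone. In RNA from whole tissue, fewer cells of a type and less RNA per cell cannot be told apart.

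**Figure D1:**
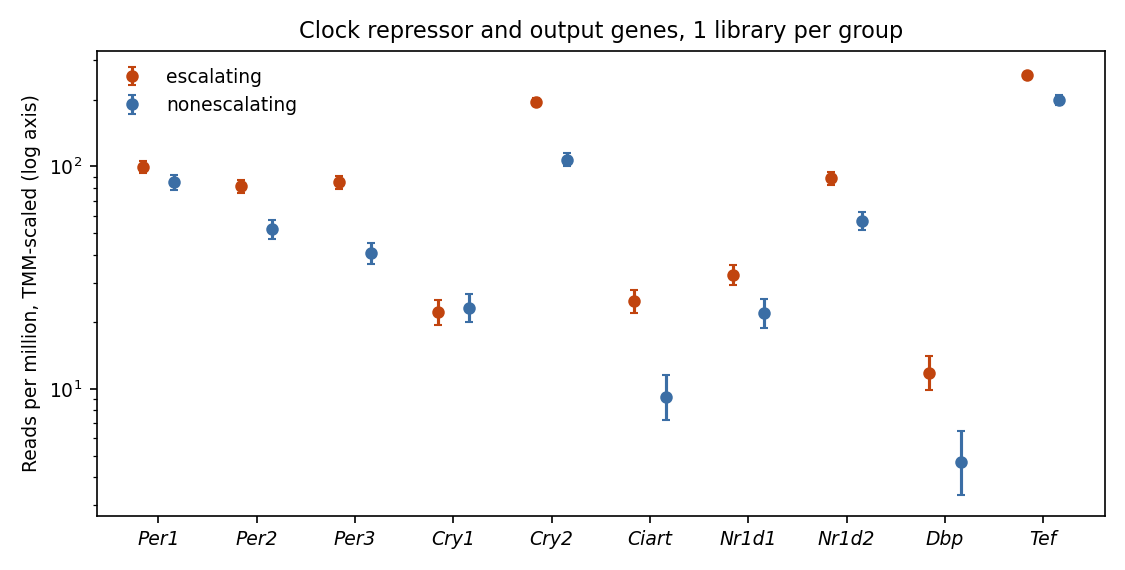
Level of each gene in CPM after TMM scaling, on a log axis, in the escalating library (orange, left of each pair) and the nonescalating library (blue); bars are exact 95% Poisson counting intervals. The pairs for Ciart, Dbp, Per3, Cry2, Per2, Nr1d2, Nr1d1, Tef and Per1 do not overlap, and the pair for Cry1 does.

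The Period genes encode the rhythmic partners of the CRY proteins, and the 3 paralogues differed from each other. Per3 (chromosome 4, 151003652 to 151044665, minus strand) had 918 reads in the escalating library and 337 in the nonescalating library, or 84.8 CPM and 40.7 CPM. It was 2.08-fold higher (interval 1.84 to 2.37). Per2 (chromosome 1, 91415982 to 91459324, minus strand) had 881 reads in the escalating library and 432 in the nonescalating library, 81.4 CPM and 52.2 CPM, and was 1.56-fold higher (1.39 to 1.75). Per2, the gene mutated in a human family with advanced sleep phase, stood just past the threshold. Per1 (chromosome 11, 69095217 to 69109960, plus strand), which light, neuronal activity and glucocorticoid hormone can induce directly, had 1075 reads in the escalating library and 702 in the nonescalating library. These were 99.4 CPM and 84.9 CPM, a ratio of 1.17 (1.06 to 1.29) that was not called. Counting intervals of the levels did not overlap between the libraries for any of the 3 genes.

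The cryptochromes, the direct repressors of CLOCK and BMAL1, differed from each other as well. Cry2 (chromosome 2, 92403646 to 92434043, minus strand) had 2109 reads in the escalating library and 888 in the nonescalating library, 195 CPM and 107 CPM, and was 1.82-fold higher (1.68 to 1.97). Cry1 (chromosome 10, 85131700 to 85185064, minus strand) had 240 reads in the escalating library and 191 in the nonescalating library, or 22.2 CPM and 23.1 CPM. Its ratio of 0.961 had an interval (0.791 to 1.17) that held 1, and its log2 ratio was the lowest of the 10 genes at -0.06. A change of Cry1 within that interval was not detectable at this depth. Ciart (chromosome 3, 95878503 to 95882251, minus strand) had 268 reads in the escalating library and 76 in the nonescalating library, 24.8 CPM and 9.19 CPM. At 2.70-fold (2.08 to 3.53) it had the largest ratio of the 10.

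Both REV-ERB genes lay near the threshold. Nr1d2 (chromosome 14, 18204054 to 18239127, minus strand) had 957 reads in the escalating library and 471 in the nonescalating library, 88.4 CPM and 56.9 CPM, and was called at 1.55-fold (1.39 to 1.74). Nr1d1 (chromosome 11, 98767932 to 98775333, minus strand) had 352 reads in the escalating library and 181 in the nonescalating library, 32.5 CPM and 21.9 CPM, and was not called at 1.49-fold (1.24 to 1.79). The threshold separates this pair, and their ratios do not differ beyond counting error.

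The output factors stood at opposite ends of the range of levels per length. Dbp (chromosome 7, 45705088 to 45710203, plus strand) had 128 reads in the escalating library and 39 in the nonescalating library, 11.8 CPM and 4.71 CPM. It was 2.51-fold higher, with an interval of 1.74 to 3.69, and it had the fewest reads of the 10. Tef (chromosome 15, 81802421 to 81826863, plus strand) had 2775 reads in the escalating library and 1646 in the nonescalating library, or 256 CPM and 199 CPM. Its ratio of 1.29 (1.21 to 1.37) was not called, although the interval excluded 1.

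**Figure D2:**
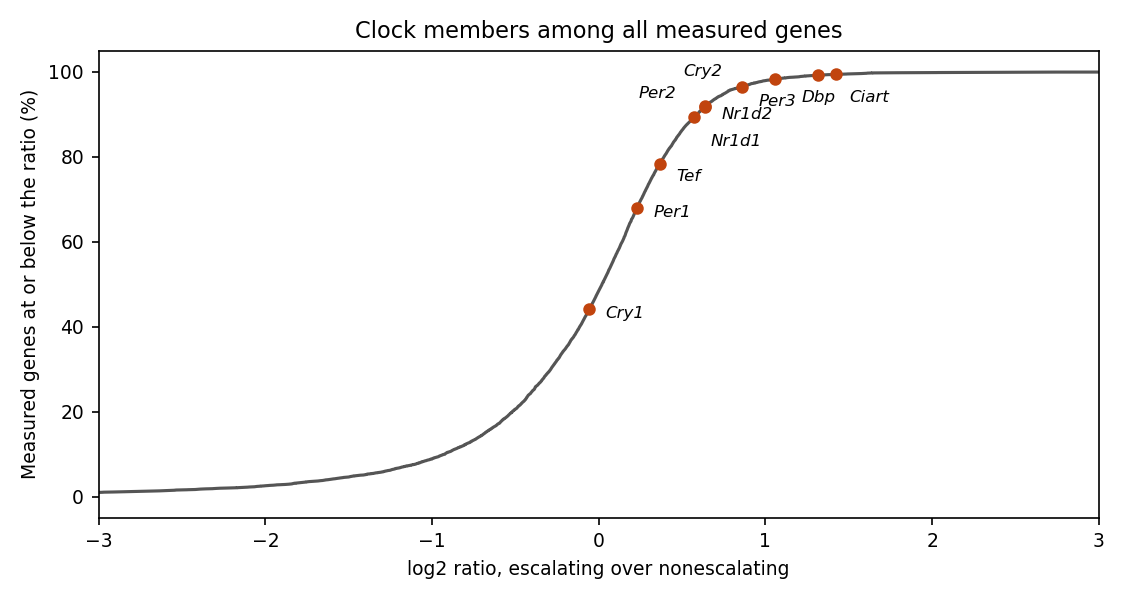
Cumulative share of the 12213 measured genes (y, percent) at or below each log2 ratio of escalating over nonescalating (x, drawn from -3 to 3), with the 10 clock genes as orange points. Ciart, Dbp, Per3 and Cry2 sit near the top of the curve and Cry1 near its middle.

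Set among all measured genes, Ciart had a larger ratio than all but 72 of them, Dbp than all but 93 and Per3 than all but 206. For Cry2 the share of measured genes with a higher ratio was 3.46%, for Per2 8.04%, for Nr1d2 8.28% and for Nr1d1 10.7%. Tef, Per1 and Cry1 lay further down, with 21.6%, 32.2% and 55.9% of genes above them.

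Per kilobase of annotated exon, Tef and Cry2 were the most abundant of the 10 transcripts and Dbp the least in both libraries. In the escalating library the level ran from Tef (32.6 CPM per kilobase) and Cry2 (30.8) through Per1 (17.6), Nr1d2 (16.4), Per2 (13.9), Ciart (11.0), Nr1d1 (10.6) and Per3 (8.83) to Cry1 (6.64) and Dbp (3.95). The counting intervals of Tef and Cry2, of Per1 and Nr1d2, and of Ciart and Nr1d1 overlapped. In the nonescalating library the order was Tef (25.3 CPM per kilobase), Cry2 (17.0), Per1 (15.1), Nr1d2 (10.5), Per2 (8.92), Nr1d1 (7.11), Cry1 (6.91), Per3 (4.24), Ciart (4.06) and Dbp (1.57). There the intervals of Cry2 and Per1, Nr1d2 and Per2, Per2 and Nr1d1, Nr1d1 and Cry1, and Per3 and Ciart overlapped. Ciart was thus above Cry1 and Per3 in the escalating library and below Cry1 in the nonescalating library.

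A ratio of 2 genes within a library does not depend on how the libraries are scaled. Reads of Cry2 stood to those of Cry1 as 8.79 in the escalating library and 4.65 in the nonescalating library, a 1.89-fold difference (1.53 to 2.33). Per3 over Per1 was 0.854 in the escalating library and 0.480 in the nonescalating library, a 1.78-fold difference (1.52 to 2.09). Per3 over Per2 was 1.04 in the escalating library against 0.780 in the nonescalating library (1.34-fold, 1.12 to 1.59). Per2 over Per1 was 0.820 in the escalating library against 0.615 in the nonescalating library (1.33-fold, 1.14 to 1.55). The ratio of Dbp to Tef was 0.0461 in the escalating library and 0.0237 in the nonescalating library, a 1.95-fold difference (1.34 to 2.88). For Nr1d2 over Nr1d1 the value was 2.72 in the escalating library and 2.60 in the nonescalating library, and the interval of their 1.05-fold difference (0.841 to 1.30) held 1. Within the PER, CRY and DBP/TEF pairs the balance therefore differed between the libraries by more than counting error, and within the REV-ERB pair a difference of up to 1.30-fold was not detectable at this depth.

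**Figure D3:**
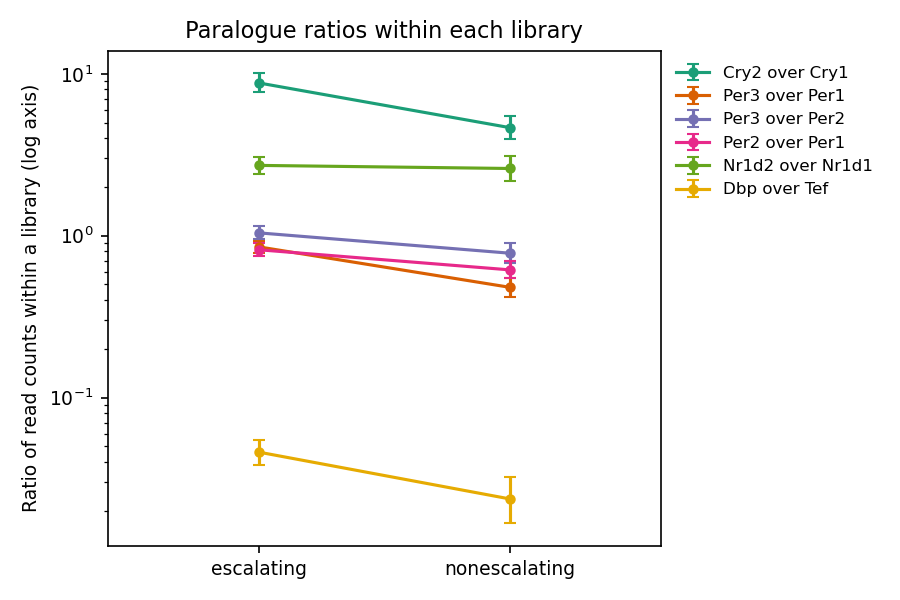
Ratio of read counts of 6 pairs of related clock genes within the escalating library (left) and within the nonescalating library (right), on a log axis; bars are exact 95% binomial counting intervals. Every line except that of Nr1d2 over Nr1d1 is higher on the left by more than its bars.

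Promoter sequences around gene starts (RefSeq, GRCm38.p6, the same build as mm10) were found for 9 of the 10 genes, at 11 starts, with no entry for Per2. They are shown for the genes with the largest ratios (Ciart, Dbp, Per3), for the cryptochrome pair, which differed in ratio, and for Per1, which was not called. Each runs from 250 bases before the start to 50 bases after the first base of the transcript, 5′ to 3′ on the gene's own strand. Capitals mark E-boxes (CACGTG), E prime boxes (CACGTT or its reverse complement AACGTG) and D-boxes (TTATGTAA, TTATGCAA or their reverse complements).
Ciart, chr3:95882179-95882478, minus strand: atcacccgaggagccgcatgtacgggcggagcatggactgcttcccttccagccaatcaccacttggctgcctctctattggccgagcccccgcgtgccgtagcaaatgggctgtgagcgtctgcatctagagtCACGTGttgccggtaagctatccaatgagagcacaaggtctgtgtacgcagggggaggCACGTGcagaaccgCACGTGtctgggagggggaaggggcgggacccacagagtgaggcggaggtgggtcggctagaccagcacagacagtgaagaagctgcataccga
Dbp, chr7:45704997-45705296, plus strand: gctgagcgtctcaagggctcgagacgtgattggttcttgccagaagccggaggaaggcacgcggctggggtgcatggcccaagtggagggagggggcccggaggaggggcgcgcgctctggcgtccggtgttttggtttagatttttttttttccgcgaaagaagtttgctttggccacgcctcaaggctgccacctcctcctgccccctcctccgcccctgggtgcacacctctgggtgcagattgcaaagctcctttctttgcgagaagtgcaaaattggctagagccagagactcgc
Per3, chr4:151044616-151044915, minus strand: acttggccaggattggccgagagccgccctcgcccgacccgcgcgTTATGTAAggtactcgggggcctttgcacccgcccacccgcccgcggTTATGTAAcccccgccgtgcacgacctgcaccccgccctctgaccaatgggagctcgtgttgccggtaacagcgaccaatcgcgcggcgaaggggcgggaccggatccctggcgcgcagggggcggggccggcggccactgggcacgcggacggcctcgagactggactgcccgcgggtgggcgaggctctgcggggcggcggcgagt
Cry2, chr2:92434020-92434319, minus strand: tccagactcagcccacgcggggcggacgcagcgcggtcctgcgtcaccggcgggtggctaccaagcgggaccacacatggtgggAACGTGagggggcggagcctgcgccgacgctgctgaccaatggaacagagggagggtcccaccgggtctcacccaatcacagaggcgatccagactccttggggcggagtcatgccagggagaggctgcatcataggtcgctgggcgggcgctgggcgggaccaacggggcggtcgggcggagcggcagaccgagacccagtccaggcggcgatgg
Cry1, chr10:85185005-85185304, minus strand: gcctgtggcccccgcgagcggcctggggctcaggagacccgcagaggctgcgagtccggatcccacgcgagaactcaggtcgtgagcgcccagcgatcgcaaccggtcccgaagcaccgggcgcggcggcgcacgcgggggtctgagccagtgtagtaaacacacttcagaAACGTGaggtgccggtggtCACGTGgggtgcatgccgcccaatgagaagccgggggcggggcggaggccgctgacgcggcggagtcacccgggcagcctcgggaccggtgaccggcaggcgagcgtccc
Per1, chr11:69098699-69098998, plus strand: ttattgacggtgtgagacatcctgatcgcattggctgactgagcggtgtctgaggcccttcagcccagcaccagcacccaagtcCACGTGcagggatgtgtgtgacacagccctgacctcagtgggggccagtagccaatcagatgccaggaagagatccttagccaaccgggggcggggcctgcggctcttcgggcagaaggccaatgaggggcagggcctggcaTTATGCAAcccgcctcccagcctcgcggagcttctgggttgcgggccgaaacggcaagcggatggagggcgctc

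The Ciart window held 3 E-boxes, which began 116, 58 and 44 bases before the start, and the Per3 window held 2 D-boxes, 205 and 158 bases before it. The Dbp window held none of the marked motifs. Cry1 had an E-box at 60 bases and an E prime box at 79 bases before its start, and Cry2 had an E prime box at 166 bases. The upstream Per1 start had an E-box at 166 bases and a D-box at 24 bases before it. Elsewhere Tef had an E-box at each of its starts and Nr1d1 an E prime box, while Nr1d2 and the other Per1 start held none of the marked motifs. In all, 4 of the 9 genes held an E-box (8.09% of 27025 genes with a window of this length), 3 an E prime box (5.44%) and 2 a D-box (1.98%). On either strand, the RORE core AGGTCA was in the windows of Nr1d2 and Per1 (18.1% of all genes), the short cAMP element TGACG in those of Cry1, Cry2 and Per1 (23.1%), and the full element TGACGTCA in none (2.03%). None of the matches in these windows overlapped a different motif of the search. Ciart and Cry1, which had the highest and the lowest ratio of the 10 genes, both held E-boxes. A match describes these letters in the window and does not show binding, and a window without one says nothing of sites further away.

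The activators on which these repressors act were less different, apart from Rorb. Of 7 activator genes, 6 were measured, 0 were higher and 1 was lower, with a median log2 ratio of 0.07. Clock had 1903 reads in the escalating library and 1200 in the nonescalating library (1.21-fold, 1.13 to 1.30), and its close relative Npas2, which is abundant in forebrain, had 1265 in the escalating library and 846 in the nonescalating library (1.14-fold, 1.05 to 1.25). Arntl had 217 reads in the escalating library and 173 in the nonescalating library, a ratio of 0.959 (0.782 to 1.18). Arntl2 had 46 reads in the escalating library and 30 in the nonescalating library, with a ratio of 1.17 (0.724 to 1.92). Rora, a nuclear receptor that activates Arntl at the sites REV-ERB proteins occupy, had a ratio of 0.932 (0.853 to 1.02). Rorb, its relative, is also a marker of neurons in the middle layers of cortex. It had 506 reads in the escalating library and 1342 in the nonescalating library, and was 3.47-fold lower (3.13 to 3.85). Of 6 measured markers of cortical excitatory neurons, 5 were higher and 0 lower. Astrocyte and microglial markers were lower for 10 of 10 genes each, oligodendrocyte markers for 7 of 10 and endothelial markers for 8 of 10. Which cells gave the Rorb reads was not tested. Summed over the 10 repressor and output genes, reads stood to those of Clock, Arntl and Npas2 as 2.87 in the escalating library and 2.24 in the nonescalating library, a 1.28-fold difference (1.20 to 1.37). With Rora and Rorb among the activators, the value was 1.93 in the escalating library and 1.11 in the nonescalating library. The difference was then 1.75-fold (1.66 to 1.84). Of the added genes only Rorb was called, and the value with Rora alone was not computed.

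**Figure D4:**
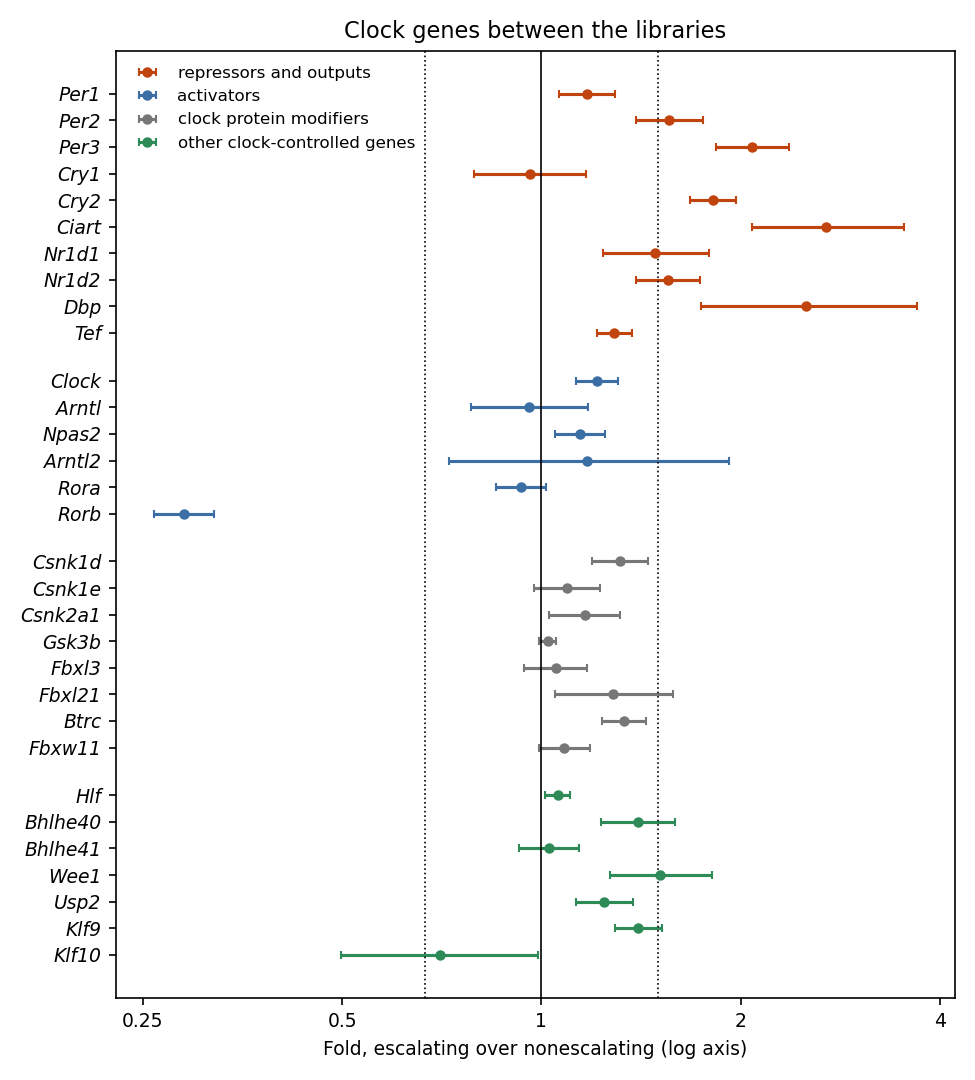
Fold of escalating over nonescalating (x, log axis) for measured clock genes by role, with exact 95% counting intervals; the solid line marks 1 and the dotted lines 1.5-fold in each direction. The repressor and output genes reach 2.70-fold, no activator or modifier is past the upper dotted line, and Rorb alone lies past the lower one.

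Enzymes that set the stability of the PER and CRY proteins differed little. Of 8 such genes, 0 were called in either direction; all 8 had log2 ratios above 0, with a median of 0.17. Btrc, a subunit of the ligase that marks PER proteins for degradation, had 1780 reads in the escalating library and 1021 in the nonescalating library, and the largest ratio of the list at 1.33 (1.23 to 1.44). Csnk1d, a kinase of PER proteins, had a ratio of 1.31 (1.19 to 1.45), Fbxl21 one of 1.28 (1.05 to 1.58) and Csnk2a1 one of 1.16 (1.03 to 1.32). Among 8 other genes under clock control, 7 were measured, 1 was higher and 0 were lower, with a median of 0.32. The higher one was Wee1, a cell cycle kinase with E-boxes in its promoter in mouse liver, at 1.51-fold (1.27 to 1.81), with 384 reads in the escalating library and 194 in the nonescalating library. Klf9 and Bhlhe40, transcription factors, had ratios of 1.40 (1.29 to 1.52) and 1.40 (1.23 to 1.59), and Klf10 one of 0.703 (0.498 to 0.990). Hlf, the third factor of the DBP and TEF family, was abundant in both libraries, with 5010 reads in the escalating library and 3622 in the nonescalating library, and had a ratio of 1.06 (1.01 to 1.10).

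Genes that respond to signals known to act on Per1 were taken as 2 further lists. The signals themselves were not measured. Of 12 glucocorticoid-responsive genes, 11 were measured, 7 were higher and 1 was lower, with a median log2 ratio of 0.86. Plin4, a lipid droplet gene, had 79 reads in the escalating library and 4 in the nonescalating library (15.1-fold, 5.67 to 56.8), and was the highest of the list. Zbtb16, a transcription factor, had 199 reads in the escalating library and 28 in the nonescalating library (5.43-fold, 3.65 to 8.39). Cdkn1a, a cell cycle inhibitor, had 494 reads in the escalating library and 102 in the nonescalating library (3.70-fold, 2.99 to 4.63). Pdk4, a mitochondrial kinase gene, was 3.45-fold lower (2.37 to 5.13). Of 11 genes induced by neuronal activity, 9 were measured, 2 were higher and 3 lower, with a median of -0.18. Npas4 was 2.84-fold higher (2.14 to 3.84) and Junb 1.64-fold higher (1.07 to 2.57), while Arc had a ratio of 0.269 (0.230 to 0.314), Egr2 one of 0.334 (0.225 to 0.486) and Nr4a1 one of 0.475 (0.400 to 0.564). No part of these lists in the values of the clock genes was tested.

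The libraries also differed in ways not particular to the clock. The escalating library had 9548358 reads in genes and the nonescalating library 9376097, and reads outside annotated genes were 28.6% of those listed in the escalating library and 18.1% in the nonescalating library. All 10 markers of striatal projection neurons were detected in both libraries, and their summed CPM was 6983 in the escalating library and 6230 in the nonescalating library; 1 (Ppp1r1b) was higher and 1 was lower. Microglial markers were lower for 10 of 10 genes, with a summed 32.8 CPM in the escalating library and 1530 CPM in the nonescalating library. Astrocyte markers were lower for 10 of 10 (1882 CPM in the escalating library, 14770 CPM in the nonescalating library) and oligodendrocyte markers for 7 of 10 (1531 CPM in the escalating library, 3938 CPM in the nonescalating library). For endothelial markers this was 8 of 10 (110 CPM in the escalating library, 198 CPM in the nonescalating library). Of 8 cortical excitatory neuron markers, 6 were measured; 5 were higher, Slc17a7, Tbr1, Neurod6 and Nrn1 among them, and 0 lower (70.6 CPM summed in the escalating library, 38.4 CPM in the nonescalating library). No glial, endothelial or projection neuron marker was at 0 in either library, and of the cortical markers Emx1 was at 0 in the nonescalating library. The part of these shifts, and of the hour of collection, in the values of the clock genes was not tested.

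Scaling between the libraries moved the ratios of the clock genes together. With total assigned reads in place of TMM, all measured genes shifted by 0.36 on the log2 scale (their median became 0.38), 9 of the 10 clock genes were called higher, and Cry1 was not, at 1.23-fold. Under that scaling 31.6% of all measured genes were called higher. Of the activators, Clock was then called higher (1.56-fold) and Rorb remained lower. Nr1d1 was called higher in 4 of the 7 scalings: total assigned reads (1.91-fold), upper quartile (1.56-fold), total reads without the 10 top genes (1.60-fold) and the projection neuron markers (1.69-fold), the last a choice made after the data were seen. In each of the 7 scalings, Ciart, Dbp, Per3, Cry2, Per2 and Nr1d2 were called higher. Every alternative except DESeq2 size factors raised the ratios over TMM, so those alternatives could not remove a call of higher. A pair of these scalings hardly differed from TMM: DESeq2 size factors shifted the log2 ratios by -0.0035 and TMM without glial and endothelial markers by 0.00070. The second left out only the listed markers, so other genes of those cells stayed in. Cry1 had a log2 ratio below 0 in 3 scalings and above 0 in 4, so its direction depends on the scaling.

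**Figure D5:**
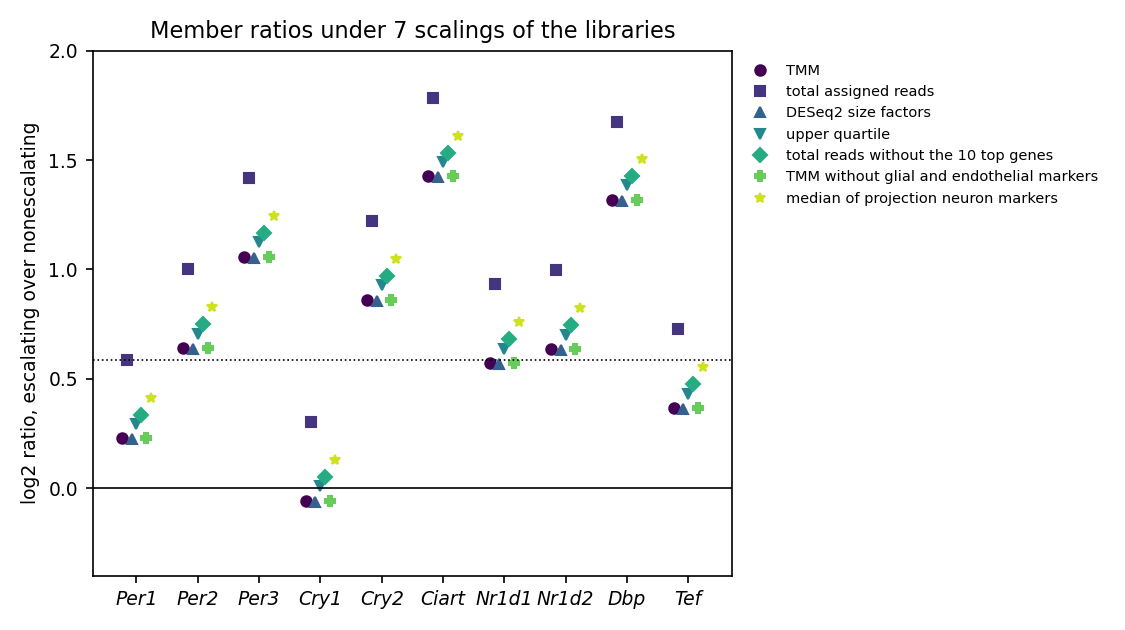
Log2 ratio of escalating over nonescalating (y) for each clock gene under 7 ways of scaling the libraries (symbols); the dotted line marks 1.5-fold and the solid line a ratio of 1. The symbols of Cry1 lie on both sides of 0, and those of Ciart, Dbp, Per3, Cry2, Per2 and Nr1d2 are all above the dotted line.

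Overlapping genes could take or add reads at some of these loci. Exons of Nr1d1 share 263 bases (8.55% of its exon bases) with Thra on the opposite strand, Dbp shares 539 bases (18.0%) with Sphk2, Cry2 shares 295 bases (4.67%) with D930015M05Rik and Tef shares 193 bases (2.45%) with Gm17597. No source used here gives the strand setting of the counting. Reads that fell in more than 1 gene, 8.06% of all in the escalating library and 18.9% in the nonescalating library, were left out by the authors' counting. Such reads are missing from both genes of a pair, and the larger share left out was in the nonescalating library. The part of this in the ratios of Dbp, Nr1d1, Cry2 and Tef was not tested. Thra had a ratio of 1.25 (1.18 to 1.32) and Sphk2 one of 1.40 (1.09 to 1.80), each below the ratio of the clock gene it overlaps. These ratios rest on the reads that were kept. D930015M05Rik had 38 reads in the escalating library and 10 in the nonescalating library, a ratio of 2.91 (1.42 to 6.54) that was above that of Cry2 but rests on fewer than 50 reads. The span of Per3 overlaps that of Camta1, and the span of Ciart that of C920021L13Rik, with no shared exon bases. C920021L13Rik, with 19 reads in the escalating library and 5 in the nonescalating library, likewise had a ratio of 2.91 (1.05 to 9.96), beside 2.70 for Ciart.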

How the data were processed

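Dorsal striatum total RNA was sequenced as 1 input library per group. Per the submitters' processing notes, alignment was to mm10 with STAR 2.0.0e and counting with HTSeq. The deposited values are the authors' raw counts per gene symbol. No source used here gives the HTSeq version or gene annotation. Reads assigned to a gene were 53.8% of those listed in the escalating library and 55.3% in the nonescalating library, and the rest stayed out of library sizes.

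Library sizes were scaled with TMM (edgeR 4.0.16, R 4.3.3), with a factor of 1.13 (escalating) and of 0.882 (nonescalating). Log2 ratios used a pseudocount of 0.5 scaled to library size, and folds used none. Intervals are exact (Clopper-Pearson for ratios, conditional exact for ratios within a library) at 95%, and cover counting error only. Calls were tried on simulated Poisson counts with 200 changed genes at the TMM-scaled library sizes. Such counts hold counting error only, so they say nothing of variation between animals or libraries. No count test was run, since each group has 1 library. Genes, lists and thresholds were chosen with earlier results of these data known. All 10 clock genes and all measured activators are named, and of other lists up to 4 genes with the largest log2 ratios, with Hlf, Junb and some called marker genes named besides after their values were seen; a few listed genes are not reported here by name; a like pattern across 2 libraries cannot be measured.

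Positions, exon lengths and overlaps came from GENCODE M21 (mm10), promoters from RefSeq GRCm38.p6. Alternative scalings (among them size factors from DESeq2 1.42.0), filters, pseudocounts and thresholds were tried. Python 3.11.15, scipy 1.17.1, pandas 2.3.3, numpy 2.4.6 and matplotlib 3.10.9 were used.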

Additional observations from a re-analysis of the deposited data

How the results depend on the processing

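The count of 6 clock genes called higher stayed within 1.5 times of that value under every scaling tried, at 6 to 9. The lowest shift from TMM was -0.0035 on the log2 scale (DESeq2 size factors), so the scalings could hardly lower this count. Lower filters on counts cannot move it, since all 10 genes had at least 50 reads. With a pseudocount of 5 the count was also 6. It was 3 with a 2-fold threshold, where 2.04% of all measured genes were higher and 8.88% lower, and 9 with no fold threshold, where 27.2% were higher and 29.4% lower. With total assigned reads 31.6% of all genes were higher and 9.4% lower, the median log2 ratio of the clock genes was 0.998, and medians were 0.43 for activators, 0.53 for protein modifiers, 0.68 for other clock-controlled genes and 1.22 (glucocorticoid list). That of activity-induced genes became positive, at 0.18 (-0.18 with TMM). Called higher were then 1 activator, 3 modifiers and 4 other clock-controlled genes. Without the 10 top genes in the total, 14.1% of all genes were higher. Scaled to projection neuron markers, 18.8% were higher and the clock median was 0.82. Counting Rora and Rorb as activators moved the difference for repressor and output genes over activators from 1.28-fold to 1.75-fold. Of these added genes only Rorb was called. Within 150 bases before the start, 3 clock genes held an E-box in place of 4 (4.92% of all genes with a window). An E prime box was in 2 in place of 3 (2.69%) and a D-box in 1 in place of 2 (1.13%). The short cAMP element was in 2 in place of 3 (15.0%), and the RORE core stayed in 2 (9.8%). Of 70 ratios of single clock genes recomputed under the other scalings and pseudocount, 55 stayed inside their counting interval, 15 moved outside it and 0 changed sign among called genes. The shifts from scaling follow from the changed library sizes. No paired analysis was possible because each group has 1 library. Dbp, with 39 reads in the nonescalating library, has the widest counting interval relative to its value of the 10 clock genes.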
